A study of Rattus norvegicus with 6 samples.

Results

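The genes described here encode proteins of S phase, in which a dividing cell copies its DNA, and of mitosis, in which it parts the copies. The set was chosen by name as 45 gene symbols, and 42 of them had at least 1 probe set annotated to that symbol alone. Each probe set combines several short probes against the same transcript. The 42 genes were read by 57 probe sets, out of 14217 genes with such a probe set on the array. Cdc6, a loading factor of replication origins, and Tpx2, a spindle assembly factor, had none. Rrm2, a subunit of ribonucleotide reductase, was read only by 2 probe sets that carry a further symbol, and these were not used.

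RNA came from 832/13 INS-1 cells, a rat insulinoma line cultured in 11 mM glucose and used from passage 7 to passage 25. The cells were transfected with siRNA against COUP-TFII, a nuclear receptor, or with a scrambled siRNA, and cultured for 48 h. There were 3 arrays of each kind, and the labels give both kinds the replicate numbers 1, 2 and 3 and call them biological replicates. All cells were of 1 tumor-derived line that divides in culture, so the comparison is of cycling cells that differ in the siRNA. The arrays with replicate number 2 stood apart from the others in both groups, and results are also given without them.

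COUP-TFII is encoded by Nr2f2, whose brightest probe set read 47.0, 27.7 and 23.8 on the COUP-TFII siRNA arrays and 182, 235 and 179 on the scrambled siRNA arrays. The groups did not overlap, and the difference was -2.65 on the log2 scale (adjusted p in limma 0.404, or 0.0185 with the replicate number as a block). A dimmer probe set read 19.7, 22.2 and 21.3 against 79.8, 65.7 and 61.8. Its difference was -1.71 (adjusted p in limma 0.316 with the block). The dimmest, at -0.37, had overlapping groups, with 16.7, 7.99 and 15.3 against 16.4, 13.6 and 19.9. All 8 beta-cell markers measured lay above the median signal, with log2 fold changes above 0 for 5, below 0 for 3 and ranging from -0.45 for Nkx6-1 to 0.22 for Slc2a2. Gcg, the glucagon gene, read 8056, 4789 and 817 against 6313, 3397 and 394, and so was lowest on both arrays numbered 3. It was higher with COUP-TFII siRNA in all 3 pairs, with a log2 fold change of 0.63. The interval was -1.81 to 3.08 without the block. With the block it was 0.33 to 0.94, and the adjusted p was 0.566 in limma. Gcg was among 5 markers of other islet cells, with log2 fold changes above 0 for 3, below 0 for 2 and ranging from -1.51 to 1.04. Among these 5 markers only Gcg lay above the median signal. The part of these markers in the results was not tested. Of the 20 genes taken as markers of fibroblasts, endothelium, blood, exocrine acini and ducts, 16 had mean signals at or below 20.7 in both groups, the top signal among 27 probe sets for Bacillus transcripts, which serve as a scale for background. Median signals per array ran from 29.9 to 39.5, lowest on the arrays with number 2.

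Genes of the set act in a fixed order. E2F factors and cyclin E with its kinase open S phase. The Mcm2 to Mcm7 proteins, loaded with the help of Cdt1, form the replicative helicase, and Pcna, the sliding clamp, holds the polymerases on DNA. Cyclin B with Cdk1 then starts mitosis, the spindle checkpoint holds it until every chromosome is attached, and the anaphase-promoting complex, with Cdc20, ends it. Transcription of the S-phase genes is known to be driven through E2F sites, and that of the mitosis genes through NF-Y boxes and an element called CHR. In beta cells such genes are known to be high around birth and low in the adult, whereas insulinoma lines keep them on.

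Promoters of 6 members are shown because they hold these elements, and because they come from genes that varied in different ways between the arrays. Each sequence is that of RefSeq on GRCr8, from 250 bases before the annotated start to 20 bases after it, read in the direction of the gene. Capitals mark, on either strand, the NF-Y box CCAAT, the CHR letters TTTGAA or TTTAAA, and the E2F letters TTTGGCGC, TTTCCCGC, TTTGGCGG or TTTCGCGC.
Mcm5 (chr19:13488563-13488832, plus strand): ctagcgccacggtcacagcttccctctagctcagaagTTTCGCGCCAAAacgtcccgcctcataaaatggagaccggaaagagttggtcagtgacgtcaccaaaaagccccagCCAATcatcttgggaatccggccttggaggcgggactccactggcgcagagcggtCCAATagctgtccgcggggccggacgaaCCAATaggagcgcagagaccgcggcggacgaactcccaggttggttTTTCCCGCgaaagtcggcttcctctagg
Gins1 (chr3:160184670-160184939, plus strand): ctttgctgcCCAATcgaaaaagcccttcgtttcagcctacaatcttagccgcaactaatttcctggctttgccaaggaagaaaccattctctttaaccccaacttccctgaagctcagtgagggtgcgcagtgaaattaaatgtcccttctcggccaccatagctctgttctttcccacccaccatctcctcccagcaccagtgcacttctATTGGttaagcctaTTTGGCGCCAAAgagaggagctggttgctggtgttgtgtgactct
Cdk1 (chr20:19265043-19265312, plus strand): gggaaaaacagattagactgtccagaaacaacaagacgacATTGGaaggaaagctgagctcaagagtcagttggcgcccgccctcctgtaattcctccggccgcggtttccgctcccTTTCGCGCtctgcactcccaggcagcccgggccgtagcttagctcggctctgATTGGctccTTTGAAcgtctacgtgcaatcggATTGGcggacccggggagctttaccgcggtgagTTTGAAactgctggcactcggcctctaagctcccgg
Plk1 (chr1:186147408-186147677, plus strand): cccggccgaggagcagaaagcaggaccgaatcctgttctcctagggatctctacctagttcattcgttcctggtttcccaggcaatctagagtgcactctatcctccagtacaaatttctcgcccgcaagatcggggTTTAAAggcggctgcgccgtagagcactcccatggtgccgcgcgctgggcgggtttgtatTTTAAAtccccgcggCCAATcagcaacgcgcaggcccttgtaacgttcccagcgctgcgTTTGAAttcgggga
Cdc20 (chr5:137255780-137256049, minus strand): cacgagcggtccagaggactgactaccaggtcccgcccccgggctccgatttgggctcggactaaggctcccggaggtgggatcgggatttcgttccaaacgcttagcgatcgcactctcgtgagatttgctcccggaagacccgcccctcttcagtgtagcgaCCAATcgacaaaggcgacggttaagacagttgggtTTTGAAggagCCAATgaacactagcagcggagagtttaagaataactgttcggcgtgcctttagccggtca
Cenpf (chr13:103760867-103761136, minus strand): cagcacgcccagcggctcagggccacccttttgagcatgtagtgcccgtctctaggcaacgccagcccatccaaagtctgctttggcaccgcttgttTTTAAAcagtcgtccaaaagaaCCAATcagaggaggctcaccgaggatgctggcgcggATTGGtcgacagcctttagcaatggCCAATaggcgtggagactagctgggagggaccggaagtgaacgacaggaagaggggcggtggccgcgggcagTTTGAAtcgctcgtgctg
In the promoter of Mcm5, a helicase subunit, 2 of the E2F matches share bases. In that of Gins1, a subunit of the helicase activator, the run of capitals that ends nearest the start reads as the same E2F letters on both strands. Plk1, a kinase of mitotic entry, and Cenpf, a kinetochore protein, have TTTGAA just after the annotated start, at positions 7 and 3. Cdk1 holds all 3 kinds of element.

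The log2 fold changes of the S-phase and mitosis genes with COUP-TFII siRNA were small, and no gene passed the test. Of the 57 probe sets, 0 passed an unadjusted p of 0.05 in limma, against 2.31% of all probe sets tested (717 of 31042, of which 302 were higher and 415 lower) and 1.08% of those not below the median signal. None passed after adjustment over all probe sets, for the members or for any other probe set. With the replicate number as a block, 3 member probe sets (5.26%) had an unadjusted p up to 0.05, against 6.23% of all probe sets and 8.09% of those not below the median signal. The lowest adjusted p of a member was then 0.768 in limma, while 5 probe sets (0.0161%) passed over the whole array. Plk1 and Aurkb were lower and Gins1 was higher by that unadjusted measure. By the methods' t-test 1 member probe set (1.75%) had an unadjusted p up to 0.05, against 3.14% of all, and 0 passed after adjustment, against 0.00322% of all.

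For each gene the brightest probe set was taken. The median log2 fold change over the 42 genes was 0.043, with 28 genes above 0 and 14 below, and single genes ran from -0.28 to 0.31. Over all probe sets the median was -0.0031. Taken by replicate number, the member medians were 0.042, 0.056 and -0.029, so the third pair had the opposite sign to the others. Without the 2 arrays numbered 2 the median was -0.0048, with 20 genes higher and 22 lower. It was -0.013 when COUP-TFII siRNA replicate 1 was left out and -0.019 when replicate 2 of that group was, so its sign rested on single arrays. After quantile normalization 24 genes were higher and 18 lower.

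The intervals bound the differences. The 95% confidence interval of the log2 fold change lay within 2-fold in either direction for 39 of the 42 genes, against 7940 of the 9066 named genes at or above the median signal. The exceptions were Ttk, Cenpe and Cenpf, all of which were far lower on the arrays numbered 2. With the replicate block all 42 intervals lay within 2-fold, and 41 lay within 1.5-fold, against 6967 of the 9066 genes. The remaining gene, Cenpe, had an interval from -0.057 to 0.67. The median standard error of a member was 0.19 on the log2 scale and 0.092 with the block. In RNA of whole cultures, fewer dividing cells and less RNA per dividing cell cannot be told apart.

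**Figure D1:**
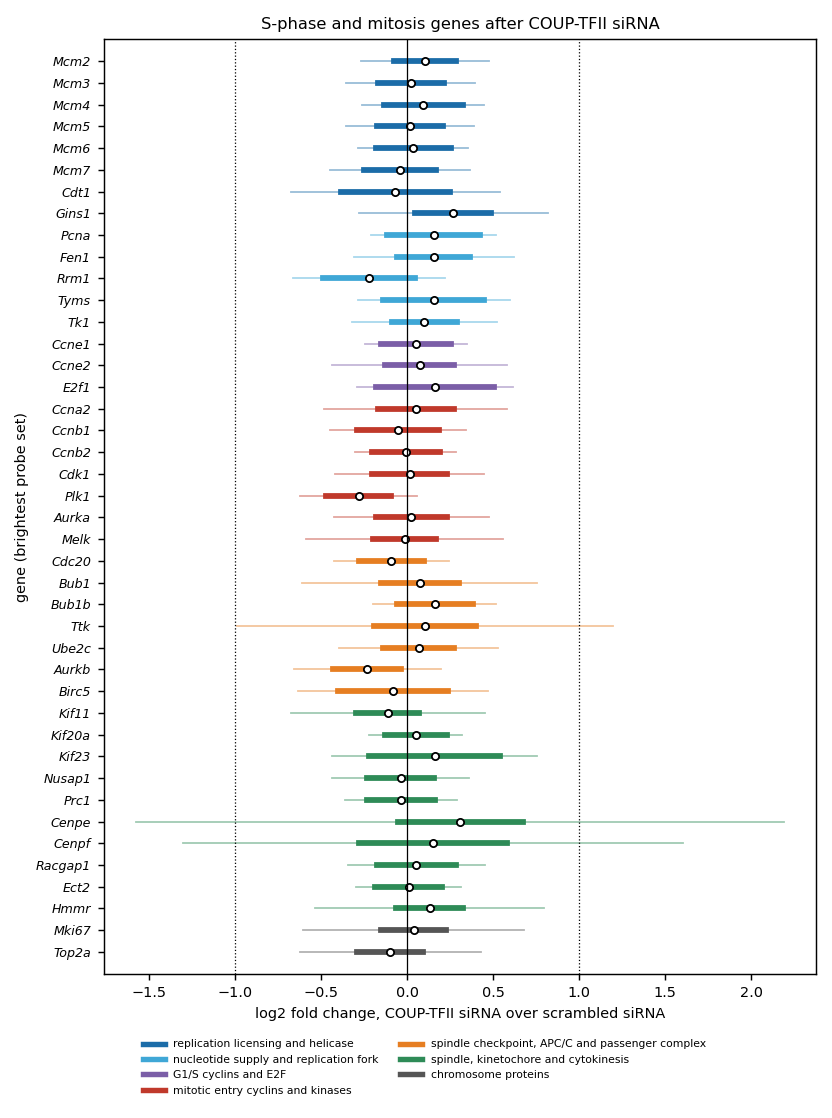
Log2 fold change of the brightest probe set of each of the 42 genes, COUP-TFII siRNA over scrambled siRNA (x axis), by gene (y axis). Circles are estimates from 3 arrays against 3, thin lines are 95% confidence intervals of the unpaired limma fit, thick lines are those with the replicate number as a block, and dotted lines mark 2-fold. Estimates run from -0.28 for Plk1 to 0.31 for Cenpe, and only the thin lines of Ttk, Cenpe and Cenpf cross a dotted line.

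Over 8 genes of replication licensing and the helicase the median log2 fold change was 0.027, with 6 higher and 2 lower. Mcm2 read 635, 866 and 784 with COUP-TFII siRNA and 612, 777 and 730 with scrambled siRNA. Each array was above its same-numbered control, but the groups overlapped, and the log2 fold change was 0.10 (95% interval -0.27 to 0.47). Mcm7, the brightest of the group, read 1281, 1882 and 1589 against 1485, 1878 and 1496. Its log2 fold change was -0.04, and number 2 was the highest array of each group. Mcm3, Mcm4, Mcm5 and Mcm6 lay between 0.02 and 0.09, and Cdt1, which loads the helicase, was at -0.07.

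Gins1 had the largest difference of the S-phase members. It read 386, 609 and 355 in COUP-TFII depleted cells and 302, 465 and 340 in control cells. All 3 pairs were higher with COUP-TFII siRNA and the groups overlapped. The log2 fold change was 0.27 (95% interval -0.28 to 0.82), or 0.05 to 0.49 with the block, where the adjusted p was 0.777 in limma. By pair the log2 fold change was 0.35, 0.39 and 0.06. Without COUP-TFII siRNA replicate 2 it was 0.03, but that fit kept scrambled siRNA replicate 2, the highest control array.

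The genes of nucleotide supply and of the replication fork had the highest median of the role groups, 0.15 over 5 genes. Pcna read 6165, 6861 and 5449 against 5791, 5356 and 5404. All 3 pairs were higher in COUP-TFII depleted cells, the third by little, and the log2 fold change was 0.15 (95% interval -0.21 to 0.52; exact permutation p = 0.2, two-sided). Fen1, a flap nuclease, and Tyms, which makes thymidylate, were also at 0.15, and Tk1, the thymidine kinase, at 0.10. Rrm1, the large subunit of ribonucleotide reductase, went the other way, with 1121, 1904 and 1485 against 1630, 1806 and 1713. Its log2 fold change was -0.22 (95% interval -0.66 to 0.22), and -0.03 without COUP-TFII siRNA replicate 1, the lowest array. The smallest two-sided p that an exact permutation test of 3 arrays against 3 allows is 0.1, and the Gins1 and Rrm1 values were both 0.5.

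The 3 genes of the G1/S transition had a median of 0.07. Ccne1 and Ccne2, which encode the E cyclins, were at 0.05 and 0.07, and E2f1 at 0.16. Ccne2 read 1272, 864 and 1090 with COUP-TFII siRNA and 1222, 736 and 1148 with scrambled siRNA. The arrays numbered 2 were the lowest in both groups, and the difference between those numbers was larger than that between the groups.

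The 7 genes of mitotic entry had a median of -0.01. Cdk1, the mitotic kinase, read 2289, 2547 and 1676 against 2052, 2464 and 1879, with 2 pairs higher and 1 lower and a log2 fold change of 0.01 (95% interval -0.42 to 0.45). Its sign turned after quantile normalization, to -0.04. Ccna2, Ccnb2, Aurka and Melk lay between -0.02 and 0.05. Ccnb1, the gene for cyclin B1, was read by 2 probe sets that differed in sign. The brighter read 2131, 2053 and 1440 against 1995, 1953 and 1809, a log2 fold change of -0.05. The dimmer read 1267, 1266 and 1269 against 1210, 1238 and 1165. It was the only member probe set whose groups did not overlap (1.75%, against 6.69% of all probe sets and 5.38% of those not below the median signal, with 3.24% of all higher and 3.45% lower), and its log2 fold change was 0.07 (95% interval -0.20 to 0.34).

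Plk1 had the lowest unadjusted p of the members. It read 437, 470 and 388 in COUP-TFII depleted cells and 561, 561 and 456 in control cells. All 3 pairs were lower, by 0.36, 0.26 and 0.23 on the log2 scale, and the groups overlapped through scrambled siRNA replicate 3. The log2 fold change was -0.28 (95% interval -0.62 to 0.05), with an exact permutation p of 0.2. With the block the interval was -0.47 to -0.09 and the adjusted p was 0.768 in limma. Its log2 fold change ran from -0.38 to -0.21 as single arrays were left out.

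The 7 genes of the spindle checkpoint, the anaphase-promoting complex and the chromosomal passenger complex had a median of 0.07. Aurkb, the kinase of the passenger complex, read 757, 1016 and 667 against 962, 1076 and 805. All 3 pairs were lower in COUP-TFII depleted cells and the groups overlapped. The log2 fold change was -0.23 (95% interval -0.66 to 0.20), and with the block the interval was -0.43 to -0.04 and the adjusted p 0.779 in limma. Birc5, or survivin, which works in the same complex, was at -0.08, with overlapping groups and a wide interval of -0.64 to 0.47. Bub1b, the checkpoint kinase BubR1, read 401, 417 and 363 against 317, 419 and 328, a log2 fold change of 0.16. Bub1 and Ttk, the other checkpoint kinases of the set, were at 0.07 and 0.10. Ube2c, the conjugating enzyme of the anaphase-promoting complex, read 2017, 2121 and 1396 against 2007, 1816 and 1424, and its log2 fold change was 0.07. The brightest probe set of Cdc20 was at -0.09, and the other 4 ran from -0.29 to 0.12.

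The 10 genes of the spindle, the kinetochore and cytokinesis had a median of 0.05. Racgap1, which acts in the closing furrow, read 2936, 3538 and 2437 against 3026, 2975 and 2520, with a log2 fold change of 0.05 that turned to -0.03 after quantile normalization. The kinesins Kif11, Kif20a and Kif23 were at -0.11, 0.05 and 0.16. Prc1 and Nusap1, which bind spindle microtubules, were both at -0.04, and Ect2, the activator of RhoA in cytokinesis, at 0.01. Cenpe, a kinetochore motor, had the largest log2 fold change of all members, 0.31, and the widest interval, -1.58 to 2.19.

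Mki67 encodes Ki67, the stain most used to count dividing cells. It read 1355, 748 and 1316 in COUP-TFII depleted cells and 1220, 756 and 1341 in control cells. The log2 fold change was 0.04 (95% interval -0.61 to 0.68), or -0.15 to 0.23 with the block. Top2a, topoisomerase II alpha, which untangles sister chromatids, read 1220, 766 and 811 against 1262, 776 and 951, lower in all 3 pairs, with a log2 fold change of -0.10. For both genes the arrays numbered 2 were the lowest of each group. The second probe set of Top2a was at 0.13, with the opposite sign.

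Of the 57 member probe sets 10 (17.5%) were higher and 6 (10.5%) lower in all 3 same-numbered pairs, against 13.4% and 14.0% of all probe sets. Of the 11 genes with more than 1 probe set, 6 had probe sets that differed in sign. By mean log2 signal over the 6 arrays, all 57 lay at or above the median of all probe sets. By group mean, 0 were at or below the Bacillus maximum in both groups. Signals on single arrays could lie lower.

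**Figure D2:**
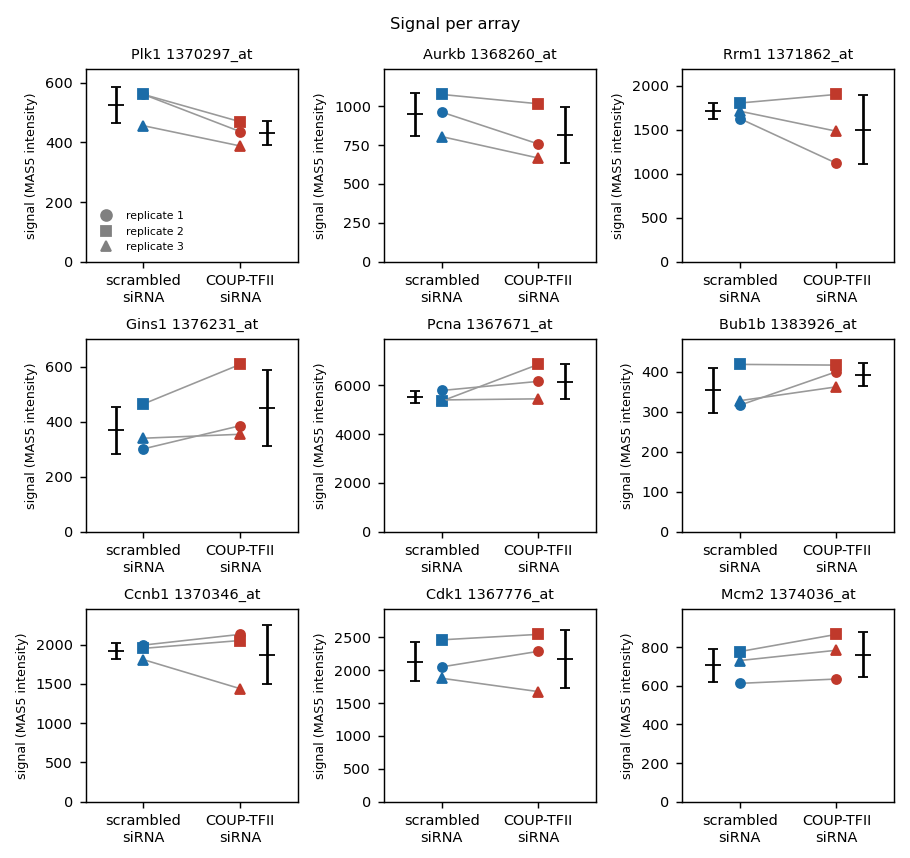
Signal of 9 members per array (y axis, MAS5 intensity, linear from 0) for scrambled and COUP-TFII siRNA (x axis). Grey lines connect arrays that share a number, and black bars are the mean ± SD of the 3 arrays of a group. The lines of Plk1 and Aurkb all fall and those of Gins1, Pcna and Mcm2 all climb, yet in every panel the points of the 2 groups overlap.

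The arrays numbered 2 set many members apart in both groups, and many other probe sets as well. In 9 of the 42 genes both arrays numbered 2 were below the other 4 arrays, and in 14 both were above them. These are 21.4% and 33.3% of the genes, against 19.8% and 19.1% of the brighter 15521 probe sets, those not below the median. The share below was thus near that of those probe sets. Cenpe read 264, 46.7 and 239 with COUP-TFII siRNA and 171, 35.1 and 259 with scrambled siRNA, and the arrays numbered 2 differed from the others by -2.51 on the log2 scale. Cenpf read 424, 107 and 445 against 235, 118 and 536, a difference between the numbers of -1.80. Ttk, a checkpoint kinase, read 354, 136 and 249 against 335, 101 and 288, a difference of -1.37. These 3 were named after their values were seen. Bub1, Mki67, Hmmr, Kif11, Ccne2 and Top2a followed at -0.83 to -0.44.

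The 14 members that were above all others on the arrays numbered 2 were Mcm3, Mcm4, Mcm5, Mcm7, Gins1, Rrm1, Tyms, Tk1, Cdk1, Melk, Cdc20, Bub1b, Aurkb and Nusap1. Their differences ran from 0.24 for Mcm3 to 0.68 for Melk, a kinase of proliferating cells. Thus 8 of the 16 S-phase members and 6 of the 26 mitosis members were in this group, whereas 1 S-phase member, Ccne2, and 8 mitosis members were in the group below. The difference of replicate 2 from the other numbers was similar in both siRNA groups (Pearson's r = 0.934 and Spearman's rho = 0.763 across the 42 genes, against 0.782 and 0.675 across those brighter probe sets). Genes on the same arrays are not independent replicates. The arrays numbered 2 also had the lowest median signals, 31.2 and 29.9 against 35.9 to 39.5, and the largest shares of probe sets at or below the Bacillus maximum, 42.2% and 43.7% against 36.2% to 39.1%. Their ratios of 3' to 5' signal for Gapdh were 1.04 and 1.09, against 0.974 to 1.07 on the others, and for actin 3.39 and 2.98, the highest and the third highest of the 6. The difference of replicate 2 also went with the span of the gene. Pearson's r with the log10 span was -0.443 across the 42 genes and -0.266 across 9036 named genes not below the median signal. Median spans were 31.4 kb for the 9 members below, 17.1 kb for the 14 above and 10.8 kb for the other 19. The part of these in the pattern was not tested.

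**Figure D3:**
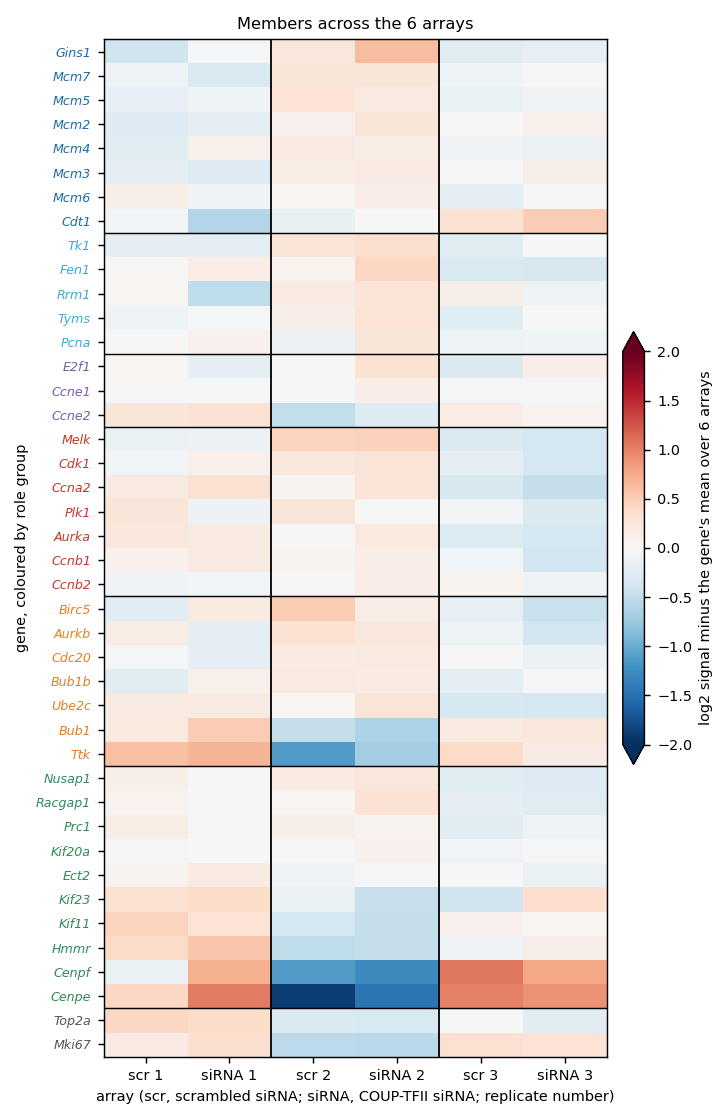
Log2 signal of each of the 42 genes on the 6 arrays (x axis), minus the mean of the gene over the arrays, in colour from blue (below) to red (above). Genes (y axis) are ordered by role group and then by the difference of replicate 2 from the other numbers, and vertical lines part the replicate numbers. Both columns with number 2 are blue for Cenpe, Cenpf, Ttk, Bub1 and Mki67 and pale red for most helicase genes. On number 1 the columns differ for Cenpf and Rrm1, among others.

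Promoter windows were given for 35 of the 42 genes, each with 250 bases before and 50 after the start. Any of the 4 E2F motifs was found in 8 of 13 S-phase promoters (61.5%) and in 1 of 22 mitosis promoters (4.55%), against 2.18% of all 33469 promoters of the same length. Either CHR motif was found in 2 S-phase promoters (15.4%) and 21 mitosis promoters (95.5%), against 28.3% of all. The CCAAT box was in 53.8% and 81.8%, against 37.5%. TTTGAA alone was in 68.2% of the mitosis promoters, and together with CCAAT in 63.6%, against 18.3% and 7.41% of all. The median share of G and C bases was 58.3% in S-phase, 58.8% in mitosis and 51.7% in all promoters. The part of base composition in these motif shares was not tested. The half-site of nuclear receptors, AGGTCA, a search added after the values were seen, was in 4 of 35 member promoters (11.4%), against 16.2% of all. It was not found in the windows of Plk1 or Gins1, and Aurkb had no window given. Binding of COUP-TFII at these genes was not tested.

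The 8 promoters of members that were lowest on the arrays numbered 2 all held a CHR motif and 0 held E2F letters. All 8 were of mitosis genes, as Ccne2 had no window given, so this motif split cannot be told from the split by role. Among other genes of the cell cycle, described below, both roles lay on both sides. The difference of replicate 2 ran from -1.63 to 0.861 for origin recognition and replisome genes. For kinetochore, spindle and condensin genes it ran from -2.46 to 0.754. Of the 12 of members that were highest there, 7 were of S-phase and 5 of mitosis genes, and 6 held E2F letters and 4 a CHR motif. Cenpf, in the first group, and Cdc20, in the second, both held TTTGAA and CCAAT, as the sequences above show. A match describes the letters of the window and does not show that a factor binds there.

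**Figure D4:**
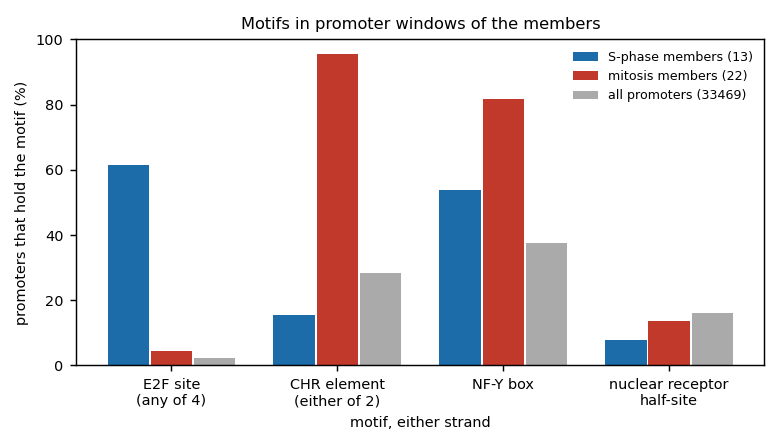
Share of promoter windows that hold a motif on either strand (y axis, percent, from 0) for 13 S-phase members, 22 mitosis members and all 33469 promoters. The bars for E2F are high only for S-phase members, at 61.5%, and those for CHR are highest for mitosis members, at 95.5%.

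Other genes of the cell cycle were measured for comparison, 122 genes from 145 symbols. Their median log2 fold change was -0.02, with 54 higher and 68 lower. At an unadjusted p of 0.05 in limma 0 were higher and 2 lower, and with the block 6 were higher and 7 lower. Of all probe sets 0.973% were higher and 1.34% lower at that p, and 2.72% and 3.51% with the block. Of the 122 genes 113 were not below the median signal. Among the 9066 named genes not below it, 20 were higher and 84 lower, and 324 and 453 with the block. None passed after adjustment, and the lowest adjusted p with the block was 0.627 in limma. The groups did not overlap for 2 higher and 4 lower genes of the 122, against 450 and 505 of all 14217 genes.

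Among origin recognition and replisome genes the median was -0.0025 over 37. Rpa3, the small subunit of the protein that coats single-stranded DNA, read 2679, 3201 and 2035 against 1884, 2406 and 1659. All 3 pairs were higher in COUP-TFII depleted cells, with overlapping groups and a log2 fold change of 0.40 (95% interval -0.07 to 0.88). Among kinetochore, spindle and condensin genes the median was -0.05 over 35. Stmn1, or stathmin, which takes microtubules apart, read 3110, 3922 and 3391 against 3922, 4299 and 4120. The groups did not overlap, by a narrow margin, and the log2 fold change was -0.25.

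The regulators above the members were also compared. Over the 19 E2F, RB and DREAM genes the median was -0.07, with 14 lower. E2f7, a repressor of E2F targets, read 112, 156 and 136 against 163, 222 and 165, groups that did not overlap. Its log2 fold change was -0.44 (95% interval -0.91 to 0.02; adjusted p = 0.720 with the block in limma). Foxm1, the activator of mitosis genes, was at 0.02, and Myc at -0.14 with overlapping groups. Of the 13 D cyclins, G1 kinases and inhibitors the median was -0.12, and Ccnd1, the gene for cyclin D1, stood lowest. Its brightest probe set read 16.5, 40.3 and 5.87 against 52.4, 46.0 and 43.0, groups that did not overlap. It lay around the Bacillus maximum of 20.7 with COUP-TFII siRNA, and its adjusted p was 0.777 with the block in limma. A dimmer probe set, the one the paper lists as lower, read 14.1, 21.9 and 15.8 against 52.4, 41.9 and 27.8. Its groups did not overlap either, with a log2 fold change of -1.22 (95% interval -2.22 to -0.21). The dimmest, at -1.85, had overlapping groups. Ccnd2 was bright, at 1430, 1345 and 2084 against 1714, 1437 and 2229, a log2 fold change of -0.15. Cdkn1b, the inhibitor p27, was higher in all 3 pairs, with a log2 fold change of 0.27, and Cdkn1a, the inhibitor p21, was at 0.14.

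Among 11 p53 targets and growth arrest genes the median was 0.03. Sesn2, a stress-responsive inhibitor of mTORC1, read 453, 359 and 427 against 545, 629 and 551. Every COUP-TFII siRNA array was below every control, and the log2 fold change was -0.48 (95% interval -0.81 to -0.15; adjusted p = 0.678 with the block in limma). A list of histones, HMG proteins, tubulin and the histone mRNA-binding protein Slbp had a median of 0.14 over 7 genes. Hmgb1, a chromatin protein, read 2340, 2385 and 2205 against 2034, 2078 and 1937, groups that did not overlap, and its log2 fold change was 0.20.

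**Figure D5:**
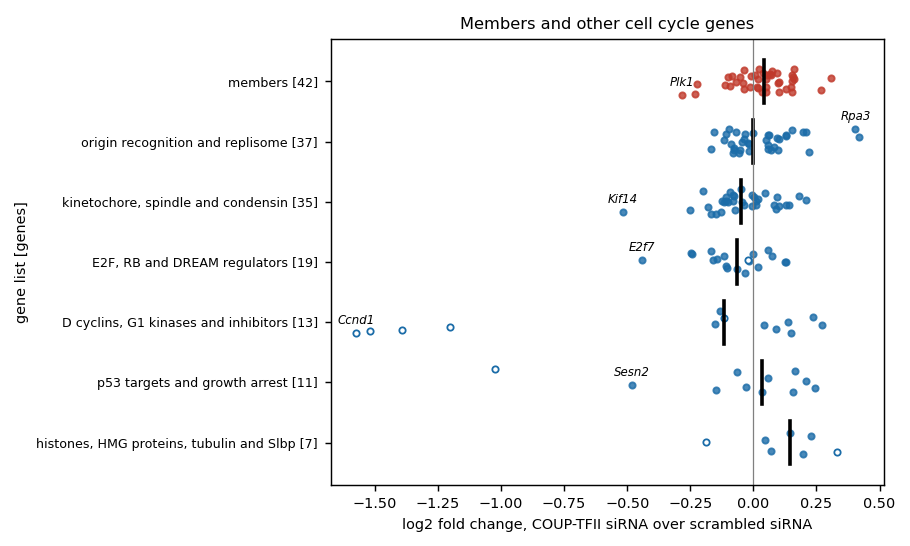
Log2 fold change (x axis) of the brightest probe set of each gene, COUP-TFII siRNA over scrambled siRNA, for the members and 6 lists of other cell cycle genes (y axis, number of genes in brackets). Points are genes, open where the mean log2 signal lay below the median of all probe sets, and black bars are list medians. Members lie between -0.28 and 0.31, and the 5 points at the far left, with Ccnd1 at -1.58, are open.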

How the data were processed

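Scans had been processed by the authors with MAS5, of a version not given in the sources used here. The deposited values are linear intensities for each probe set on each array, from which background was subtracted and which were scaled to reference probes. Of 31099 probe sets the 57 controls were left out.

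After values under 1 had been raised to 1, log2 intensities were fitted in R 4.3.3 by limma 3.58.1 (lmFit, eBayes with an intensity trend) without pairing. Tests were two-sided, and p values were adjusted over 31042 probe sets after Benjamini-Hochberg. Symbols came from the platform annotation and promoters from RefSeq (GRCr8). Plots were made in Python 3.11.15 with matplotlib 3.10.9.

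Deviations from the group means correlated at 0.111, 0.231 and 0.163 between arrays of the same replicate number and at -0.146 to -0.0104 between others. The numbers, taken from the labels, were treated as pairs because the same-number values were all positive. The labels do not say that the numbers mark shared cultures. The deviations of a group cancel out, so positive same-number values force negative ones elsewhere. Block values are printed where they change a count, and for some single genes. The number of arrays limits the precision.

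The members, the other lists and the tests were chosen with earlier results of these data known. Values per array are given for the brightest member of each role group, for Mki67, Top2a, Pcna, Mcm2, Ccnb1 and Cdk1, for the 3 members of lowest p in each direction, and for those with an unadjusted p up to 0.05 in either fit. Of the other lists, up to 3 genes of lowest p that were not below the median signal, and 6 fixed names, may be named, and a part is printed. Other settings tried were the Student test of the methods, a fit with no trend, quantile normalization, centring on the median, log2(signal + 16), removal of dim probe sets or of those below the median, the block, and arrays left out.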

Additional observations from a re-analysis of the deposited data

How the results depend on the processing

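The count of members called after adjustment stayed 0 in every setting run. At an unadjusted p up to 0.05 the count of member probe sets, 0 in the unpaired fit, was 1 by the methods' t-test (the dimmer one of Ccnb1), 3 with the replicate block, 3 with the block and log2(signal + 16), and 5 with the block and quantile normalization, where Rrm1 and the dimmer probe set of Nusap1 joined Plk1, Aurkb and Gins1. It ran from 0 to 2 as single arrays were left out, with Rrm1 and Aurkb passing without COUP-TFII siRNA replicate 2, and Plk1 without scrambled siRNA replicate 3. The median over the members ran from -0.019 to 0.075 over the same arrays, and was -0.0048 without both arrays numbered 2. The settings that join the block with another choice were added after the data were seen. The block leaves each log2 fold change unchanged here, so it could not turn a direction.

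Of 37 probe sets followed one by one, 22 kept their direction in all settings. Plk1, Aurkb, Rrm1, Gins1, Pcna, Mcm2 and Bub1b were among them. Of 701 values 50 reversed. The fit with no trend, the t-test, the block alone and the removal of probe sets do not alter a log2 fold change. The 701 values therefore include some that could not turn. After quantile normalization, with or without the block, Cdk1 was at -0.042, Racgap1 at -0.025 and H2afz, a histone gene, at -0.026. Without the arrays numbered 1, Mki67 was at -0.020, Cdk1 at -0.059, Mcm7 at 0.045 and Cenpf at -0.20. Without those numbered 2, Ccne2 was at -0.0089, Cdk1 at -0.0037, Ube2c at -0.011, Racgap1 at -0.046, Ttk at -0.067 and H2afz at -0.0086. Without those numbered 3, the brighter Ccnb1 probe set was at 0.084 and Foxm1 at -0.070. With single arrays left out the log2 fold change ran from -0.22 to 0.32 for Mki67, -0.16 to 0.22 for Ccne2, -0.11 to 0.19 for Cdk1, -0.17 to 0.10 for Mcm7, -0.074 to 0.26 for Ube2c, -0.082 to 0.19 for Racgap1, -0.16 to 0.13 for the brighter Ccnb1 probe set, -0.31 to 0.086 for Top2a, -0.44 to 0.48 for Ttk, -0.56 to 1.12 for Cenpe, -0.38 to 0.82 for Cenpf, -0.25 to 0.28 for Foxm1, -0.33 to 0.033 for Myc and -0.35 to 0.018 for Ccnd2. The cause was not tested. The brightest probe set of each member had a mean of at least 115 in both groups, against a Bacillus maximum of 20.7, so low signal limits Ccnd1 more than the members.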
